A study of Mus musculus with 18 samples.

Results

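Suz12, Eed and Phf1 encode non-catalytic subunits of the Polycomb repressive complex PRC2, and their transcripts were followed in mesenchymal stem cells from fat of mice of 5 ages. They were taken by gene symbol from a focused array and make up 3 of its 64 genes, each with 2 spots per array. The array carries oligonucleotides for Polycomb and Trithorax group genes, proteins that maintain the repressed or active state of genes in dividing cells. The donors were mice of the inbred FVB strain, and the fat was inguinal. There were 4 samples at 1 month of age, 3 at 3 months, 3 at 6 months, 3 at 12 months and 2 at 24 months. The labels name no genetic change and no agent given to mice or cells, and the cells were cultured for no more than 5 passages before total RNA was amplified linearly and labelled with biotin. Age here is therefore the age of the donor, and the RNA is that of cultured cells. The labels describe each source as cells of 1 mouse but do not say whether samples of an age came from separate mice or cultures, so the p-values measure the spread between these samples only. In such bulk RNA, fewer cells of a type and less RNA per cell cannot be told apart.

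PRC2 places methyl groups on a lysine of histone H3, a mark of silenced genes, and in stem cells it holds lineage and cell-cycle inhibitor genes in check. The catalytic subunit, EZH2 or its paralogue EZH1, is inactive alone and works only when bound to SUZ12 and EED. SUZ12 is the scaffold on which the core is assembled and to which accessory proteins dock. EED is a WD-repeat protein that binds the methylated histone tail and thereby stimulates the enzyme. PHF1 is a Polycomb-like accessory protein, with a Tudor domain and PHD fingers, that helps recruit the complex to chromatin and is not part of the core.

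The 15 samples were hybridised to 18 arrays, because 2 samples of 1 month and 1 of 12 months have a technical repeat. The median signal of the gene spots ranged from 8286 to 33357 pixel units between arrays, and 23 to 39 genes were called present on an array by the authors' detection call. The number of arrays limits the precision. By name and by place in the deposited sheets the arrays form 2 sets, of 12 and 6 arrays. The second holds both arrays of 24 months, 3 of the 6 arrays of 1 month and 1 of the 4 arrays of 12 months, and the first holds the rest, with all arrays of 3 and 6 months. None of the mesenchymal markers looked for is on the array (0 of them), so the labelled cell type could not be checked on its own genes. Of genes that mark other cells, Itgb2, Nckap1l and Darc were detected in 0 samples and Krt17 in 1 sample, each with a single spot.

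The region just upstream of each gene is shown to identify the 3 genes and to show how their promoters differ in base composition and motifs. All 3 symbols were matched in the RefSeq promoter table for GRCm38.p6, and the 250 bases before the annotated start are printed 5′ to 3′ along the gene's strand. Capitals mark matches, on either strand, to the GC box (GGGCGG), the CCAAT box (CCAAT), the TATA box (TATAAA) and an E2F motif (TTTCCCGC), none of which overlaps another here. The Suz12 window lies at chr11:79992856-79993105 on the plus strand, the Eed window at chr7:89980977-89981226 on the minus strand and the Phf1 window at chr17:26932877-26933126 on the plus strand.
Suz12: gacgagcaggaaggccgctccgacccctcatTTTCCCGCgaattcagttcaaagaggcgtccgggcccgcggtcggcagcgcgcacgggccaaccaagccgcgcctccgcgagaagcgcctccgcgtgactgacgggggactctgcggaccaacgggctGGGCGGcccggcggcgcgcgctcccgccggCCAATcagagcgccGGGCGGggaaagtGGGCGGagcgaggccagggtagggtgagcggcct
Eed: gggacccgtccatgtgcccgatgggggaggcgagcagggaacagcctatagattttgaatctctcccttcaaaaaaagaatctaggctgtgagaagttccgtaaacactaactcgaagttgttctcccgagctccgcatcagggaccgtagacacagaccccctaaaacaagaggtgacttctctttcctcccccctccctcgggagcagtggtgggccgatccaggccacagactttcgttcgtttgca
Phf1: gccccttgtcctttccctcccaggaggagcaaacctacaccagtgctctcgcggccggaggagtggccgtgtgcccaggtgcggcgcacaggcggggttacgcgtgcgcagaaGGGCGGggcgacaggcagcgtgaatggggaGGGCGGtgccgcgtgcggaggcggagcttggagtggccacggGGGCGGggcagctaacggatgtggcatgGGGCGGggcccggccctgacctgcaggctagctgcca

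The Suz12 window is 73.6% G and C and holds 37 CpG dinucleotides, with 3 GC boxes, 1 CCAAT box and 1 E2F motif. E2F factors drive genes of the cell cycle. The Phf1 window is 72% G and C, with 23 CpG dinucleotides and 4 GC boxes. The Eed window is 54.4% G and C with 12 CpG dinucleotides, and none of the searched motifs has a match in it (0 matches). The median over 32851 promoter windows of the same length was 52.4% G and C and 6 CpG dinucleotides. A GC box was present in 32.74% of those windows, a CCAAT box in 33.85%, a TATA box in 12.37% and the E2F motif in 0.8949%. These matches describe letters in a window and do not show that a factor binds there.

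On the arrays the 3 genes lay in different parts of the signal range, as the plot of raw signals shows. Eed was called present on all 36 of its spots. Suz12 was present on 30 of 36 spots. Phf1 was present on 1 of 36 spots. Signals of different probes depend on the probe as well as on the transcript, so these figures say how well each gene was measured and not which transcript is the more abundant.

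**Figure D1:**
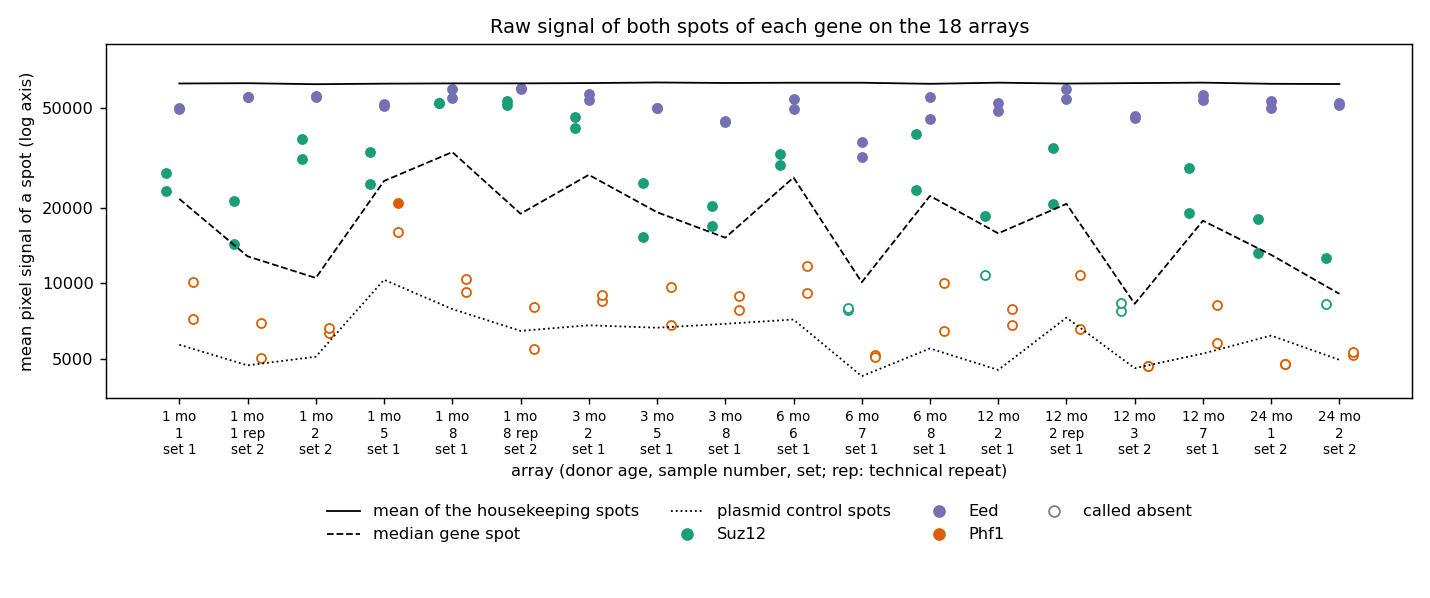
Mean pixel signal, on a log axis, of both spots of Suz12, Eed and Phf1 on each of the 18 arrays, ordered by donor age, with open circles for spots called absent. The lines join, per array, the mean of the housekeeping spots (62211 to 63199 pixel units), the median gene spot and the plasmid control spots. Eed sits just under the housekeeping line, Phf1 near the plasmid controls, and Suz12 lies between and varies with the median gene spot.

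Suz12, the scaffold gene, had its highest mean level at 1 month and a lower mean at each older age, but no difference between ages passed the test. The mean normalised log2 signal was 14.48 ± 0.70 (SD, n = 4) at 1 month and 14.01 ± 0.61 (SD, n = 3) at 3 months. It was 13.60 ± 0.75 (SD, n = 3) at 6 months, 13.67 ± 0.26 (SD, n = 3) at 12 months and 13.68 ± 0.25 (SD, n = 2) at 24 months. Ordered by level the ages run 1, 3, 24, 12 and 6 months, and each step in that order is smaller than the SD of at least 1 of the ages it joins.

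The 4 samples of 1 month had Suz12 levels of 13.99 (sample 1), 14.95 (sample 2), 13.79 (sample 5) and 15.21 (sample 8). At 3 months the levels were 14.66 (sample 2), 13.46 (sample 5) and 13.90 (sample 8). Within both of these ages some samples were high and others low, and the ages overlap. At 6 months they were 13.84 (sample 6), 12.76 (sample 7) and 14.20 (sample 8). At 12 months they were 13.62 (sample 2), 13.43 (sample 3) and 13.95 (sample 7), and at 24 months 13.86 (sample 1) and 13.50 (sample 2). Of the 11 older samples, 5 lay below the lowest 1-month sample, 10 lay below the 1-month mean and 0 lay above the highest 1-month sample. The age groups nevertheless overlap in every comparison with 1 month. How many of the tested genes have as many older samples below the 1-month samples was not counted.

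**Figure D2:**
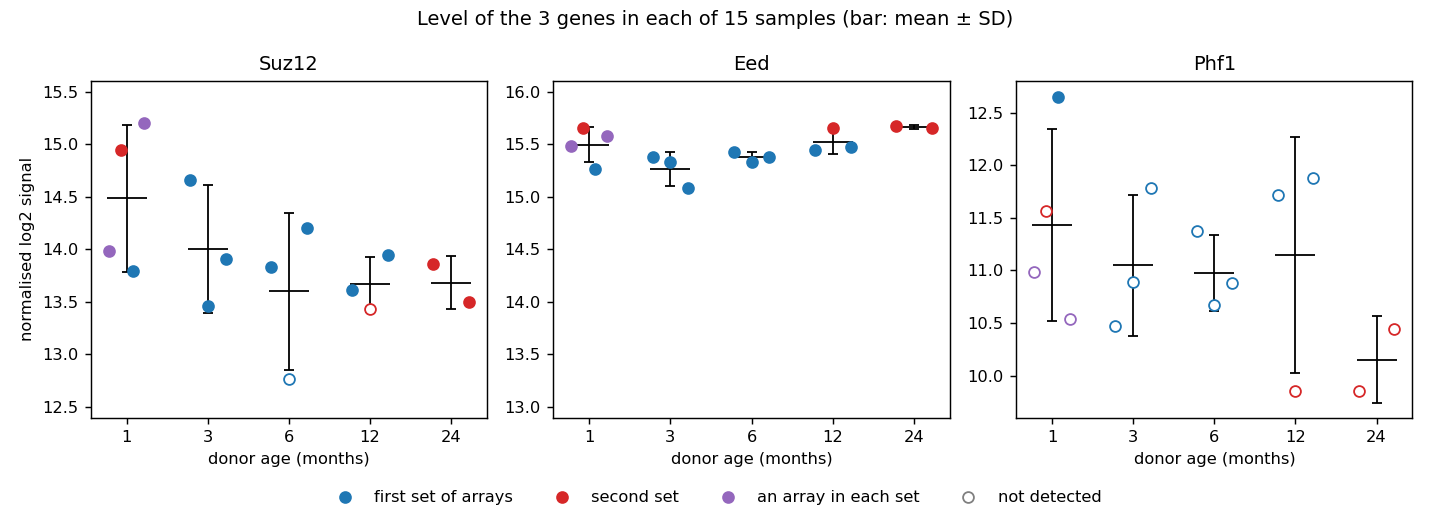
Normalised log2 signal of Suz12, Eed and Phf1 in each of the 15 samples against donor age, with the mean ± SD per age as bars. The vertical axes cover the same span with different starting points, colours give the set of arrays, and open circles are samples in which the gene was not detected. Suz12 spreads over 2.44 log2 units with its 2 highest samples at 1 month, Eed over 0.59, and Phf1 has 1 filled point.

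Each older age was set against 1 month with limma over the 38 genes detected in at least 2 samples, with Benjamini-Hochberg adjustment over them. Suz12 differed by -0.88 on the log2 scale at 6 months (SE 0.44, 95% interval -1.86 to 0.09, limma adjusted p = 0.278), which is 0.542 times the 1-month signal. At 24 months the difference was -0.80 (SE 0.50, 95% interval -1.91 to 0.30, limma adjusted p = 0.447), or 0.573 times the 1-month signal. At 12 months it was -0.82 (SE 0.44, 95% interval -1.79 to 0.15, limma adjusted p = 0.995), and at 3 months -0.48 (SE 0.44, 95% interval -1.45 to 0.50, limma adjusted p = 0.636). All intervals include 0 and also include a signal 0.366 times that of 1 month, so neither no change nor a sizeable drop can be told from these samples. The moderated F-test over the 5 ages gave a limma adjusted p of 0.545.

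As a steady trend, Suz12 changed by -0.20 log2 units for each doubling of age (SE 0.087, 95% interval -0.39 to -0.02). Its unadjusted p of 0.0357 was the third lowest of 38 genes in limma, and the adjusted p was 0.415. Under an unadjusted p of 0.05 there were 4 genes in the trend. After adjustment the trend called 0% of the 38 genes, and so did the F-test and the comparisons at 3, 12 and 24 months (0% each). The comparison at 6 months called 2.63%, which is 1 gene, Sbf1, named after its value was seen (0.12 higher than at 1 month, limma adjusted p = 0.038). None of the members was called in any of these comparisons (0 of the 2 tested).

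A second view of the same samples asked whether every sample of an older age lay below every 1-month sample. That held for Suz12 and Eed at 0 of the 4 older ages. Over all 38 genes it held for 0% at 3 months, 5.26% at 6 months, 2.63% at 12 months and 10.5% at 24 months.

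**Figure D3:**
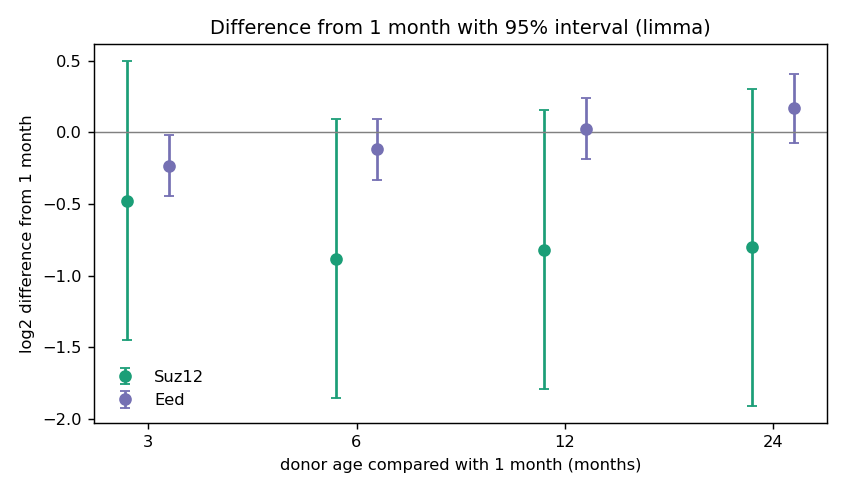
Difference of each older age from 1 month on the log2 scale for Suz12 and Eed, with points for the limma estimate and bars for the 95% interval. The Suz12 estimates lie between -0.88 and -0.48 with bars that cross 0. The Eed bars are narrower and lie between -0.44 and 0.41, and the bar at 3 months ends just below 0.

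The authors' detection calls for Suz12 were also unevenly placed over the ages. All 18 spots at 1 and 3 months were called present, whereas 6 of 18 spots at 6 months and older were called absent. Both spots were absent in sample 7 of 6 months and in sample 3 of 12 months, and 1 spot was absent on the first array of sample 2 of 12 months and in sample 2 of 24 months. Those 4 arrays had median gene spots of 10099, 8286, 15819 and 9078 pixel units, and 3 of them were the dimmest 3 of the 18. Suz12 thus counted as detected in every sample of 1, 3 and 24 months, in 2 of 3 samples of 6 months and in 2 of 3 samples of 12 months. The 4 arrays with an absent Suz12 spot had 30, 23, 36 and 30 genes called present, in the order given above. Sample 2 of 1 month and sample 8 of 3 months had 28 and 29, with both Suz12 spots present. Absent calls of the other genes were not counted by age, so whether this placing is particular to Suz12 was not tested. Array brightness differed between the sets and between ages, also within a set. In the first set the median gene spot was 21700 to 33357 pixel units at 1 month, 15200 to 27076 at 3 months, 10099 to 26413 at 6 months and 15819 to 20741 at 12 months. In the second set it was 10506 to 18946 at 1 month, 8286 at 12 months and 9078 to 12984 at 24 months. For the 2 samples of 1 month with an array in each set, it was lower in the second, at 12813 against 21700 and 18946 against 33357. Over the 15 samples the raw log2 signal of Suz12 had a Pearson correlation of 0.81 with the log2 median gene spot and its normalised level one of 0.43, as a description of arrays that share that brightness. The part of brightness in the Suz12 values was not tested.

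Sample 7 of 6 months, one of the dim arrays, carries much of the 6-month difference. Without it the Suz12 difference at 6 months was -0.46 (limma adjusted p = 0.754) in place of -0.88. Without sample 8 of 1 month, the highest of all, the trend was -0.14 per doubling of age (limma adjusted p = 0.416) and the 24-month difference -0.56 (limma adjusted p = 0.712). Without sample 5 of 1 month, the lowest of its age, the 24-month difference was -1.03 (limma adjusted p = 0.425). The estimates stayed below 0 in all 15 such fits for each older age and the trend.

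No difference in Suz12 between the sets of arrays passed the test. With the set as a term in the limma fit, Suz12 was 0.17 higher in the second set (SE 0.39, adjusted p = 0.773), and its trend was -0.22 per doubling of age (SE 0.079, adjusted p = 0.283). In the first set alone the mean levels were 14.32 (n = 3), 14.01 (n = 3), 13.60 (n = 3) and 13.78 (n = 2) at 1, 3, 6 and 12 months. In the second set alone they were 14.72 (n = 3) at 1 month, 13.43 (n = 1) at 12 months and 13.68 (n = 2) at 24 months. The older means were below the 1-month mean within each set. The limma trend within a set was -0.19 (adjusted p = 0.789) in the first and -0.25 (adjusted p = 0.516) in the second.

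The authors' own scaling also had Suz12 highest at 1 month, but placed 24 months last in place of 6 months. In the authors' deposited table of ratios to the housekeeping genes, the mean over samples was 0.547 ± 0.205 (SD, n = 4) at 1 month and 0.437 ± 0.224 (SD, n = 3) at 3 months. It was 0.375 ± 0.217 (SD, n = 3) at 6 months, 0.280 ± 0.136 (SD, n = 3) at 12 months and 0.208 ± 0.060 (SD, n = 2) at 24 months. On these ratios the mean is lower at each older age than at the one before, while the SDs of neighbouring ages overlap. The trend on the log2 scale of the ratios, with a pseudocount of 0.01, was -0.29 per doubling of age (SE 0.10, limma adjusted p = 0.133), the lowest adjusted p among the processings tried for it. The housekeeping spots were near the top of the scale on every array, so this ratio keeps the brightness of the array in it.

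Eed, the histone-reading core subunit, had no age difference that passed the test and the smaller spread between samples of an age of the 2 tested genes. Its mean normalised log2 signal was 15.49 ± 0.17 (SD, n = 4) at 1 month, 15.26 ± 0.16 (SD, n = 3) at 3 months and 15.38 ± 0.04 (SD, n = 3) at 6 months. It was 15.52 ± 0.11 (SD, n = 3) at 12 months and 15.66 ± 0.02 (SD, n = 2) at 24 months. Ordered by level the ages run 24, 12, 1, 6 and 3 months. Only the step from 24 to 12 months is larger than the SDs of both ages, and the highest 12-month sample had the level of the lower 24-month sample.

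At 1 month the Eed levels were 15.48 (sample 1), 15.65 (sample 2), 15.27 (sample 5) and 15.58 (sample 8). At 3 months they were 15.37 (sample 2), 15.33 (sample 5) and 15.08 (sample 8), and at 6 months 15.42 (sample 6), 15.33 (sample 7) and 15.37 (sample 8). The samples of 3 and 6 months lie inside the 1-month range except for sample 8 of 3 months, which is the lowest of all. At 12 months they were 15.44 (sample 2), 15.65 (sample 3) and 15.47 (sample 7), and at 24 months 15.67 (sample 1) and 15.65 (sample 2). Sample 1 of 24 months is the highest of all.

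Against 1 month, Eed differed by -0.23 at 3 months (SE 0.096, 95% interval -0.44 to -0.02, limma unadjusted p = 0.0344, adjusted p = 0.327). At 24 months it differed by 0.17 (SE 0.11, 95% interval -0.07 to 0.41, limma adjusted p = 0.447). The differences at 6 and 12 months were -0.12 (limma adjusted p = 0.518) and 0.03 (limma adjusted p = 0.995), with 95% intervals of -0.33 to 0.09 and -0.19 to 0.24. Under the reported processing these intervals run from 0.735 to 1.33 times the 1-month signal. Median centring gave larger differences, 0.36 at 12 months (SE 0.50) and 0.91 at 24 months (SE 0.57, limma adjusted p = 0.341), neither of them called, so the limits hold for the quantile-normalised scale only. The F-test over ages gave a limma adjusted p of 0.137, and the trend was 0.03 per doubling of age (SE 0.027, limma adjusted p = 0.621). The sign of the differences at 12 and 24 months and of the trend turned under scaling on the housekeeping genes, no scaling and the authors' ratios.

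Eed differed between the sets of arrays. With age in the limma fit, Eed was 0.27 higher in the second set (SE 0.067, 95% interval 0.13 to 0.42, adjusted p = 0.00898). The set term called 23.7% of the 38 genes, 4 higher and 5 lower in the second set. Among the technical repeats, the second-set array read 0.35 higher for sample 1 of 1 month and 0.19 higher for sample 8 of 1 month. The repeat of sample 2 of 12 months, within the first set, read 0.28 higher. Over single arrays the Eed level lay between 15.08 and 15.58 in the first set and between 15.65 and 15.67 in the second. Within the second set the Eed means were 15.66 (n = 3), 15.65 (n = 1) and 15.66 (n = 2) at 1, 12 and 24 months, and within the first 15.35 (n = 3), 15.26 (n = 3), 15.38 (n = 3) and 15.46 (n = 2) at 1, 3, 6 and 12 months. Since 24 months is only in the second set and 3 and 6 months only in the first, a comparison of 24 with 3 or 6 months cannot be told apart from the set. The arrays of 1 month are divided between the sets, so the comparisons with 1 month also carry part of the set. With the set as a term, Eed differed from 1 month by -0.11 at 3 months (SE 0.079, limma adjusted p = 0.905). At 24 months it then differed by 0.02 (SE 0.090, limma adjusted p = 0.987), and at 6 and 12 months by 0.01 and 0.06.

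The raw signals show how narrow the range for Eed was. The mean of its spots lay between 34375 and 59892 pixel units on the 18 arrays, which is 54.5% to 95.5% of the mean of the housekeeping spots on the same array. The lowest was sample 7 of 6 months, the dim array on which Suz12 was called absent. Among the 117 gene spots of an array, those of Eed ranked between 18.5 and 34 from the brightest in the first set and between 14 and 20 in the second. Quantile normalisation replaces a signal by the mean signal of its rank, so spots of the same rank on different arrays take identical values, and the near-identical second-set levels are partly of this kind. Close to the top of the scale a change in transcript would show as less than its size; how much less was not tested.

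Suz12 was also set against Eed on the same array, which needs no scaling between arrays. The raw log2 signal of Suz12 minus that of Eed was -0.74 ± 0.47 (SD, n = 4) at 1 month, -0.96 ± 0.55 (SD, n = 3) at 3 months and -1.17 ± 0.82 (SD, n = 3) at 6 months. It was -1.71 ± 0.71 (SD, n = 3) at 12 months and -2.02 ± 0.42 (SD, n = 2) at 24 months. The samples of 24 months were at -1.73 and -2.32, and those of 1 month between -1.30 and -0.16. How often other pairs of genes separate these ages in raw signal was not counted. Eed lies near the top of the scale and both 24-month arrays are dim, and the part of either in this difference was not tested. It is a description of unequal signals on dimmer and brighter arrays, without a test, and its zero has no meaning because the probes differ.

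The repeat arrays and the paired spots describe the measuring error behind these levels, although both 1-month repeats lie across the 2 sets. For Suz12 the repeat minus the first array was 0.06 for sample 1 of 1 month, 0 for sample 8 of 1 month and 0.62 for sample 2 of 12 months. The 0 is a tie of quantile normalisation, in which raw signals of 52219 and 52279 pixel units took the same level. For Eed the same repeats gave 0.35, 0.19 and 0.28. The median absolute difference over the tested genes was 0.31, 0.28 and 0.31 for the 3 pairs, so the Eed repeats lay near the typical gene and the Suz12 repeats on both sides of it. The 2 spots of Suz12 on an array differed by a median of 0.46 log2 units and at most by 1.28, the 23rd smallest gap of 34 genes with paired spots. Those of Eed differed by a median of 0.07, the 7th smallest. The pooled SD between samples of an age was 0.59 for Suz12, the 29th smallest of 38, and 0.13 for Eed, the 11th smallest, against a median of 0.38.

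Phf1, the Polycomb-like accessory gene, was detected in 1 of 15 samples and was not tested for age. The mean of its spots lay between 4673 and 18404 pixel units, below the dimmest gene spot called present on 18 of 18 arrays, and at a median of 1.25 times the plasmid control spots. The only spot called present was in sample 5 of 1 month, with 20854 pixel units. That array had the brightest plasmid controls of all, at 10332 pixel units. Where a signal is not above background it gives only a bound on the transcript, so no fold between ages is given.

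The normalised values of Phf1 are listed for completeness. They were 10.98, 11.57, 12.65 and 10.54 at 1 month (samples 1, 2, 5 and 8), and 10.47, 10.88 and 11.78 at 3 months (samples 2, 5 and 8). At 6 months they were 11.37, 10.67 and 10.88 (samples 6, 7 and 8), at 12 months 11.71, 9.86 and 11.87 (samples 2, 3 and 7), and at 24 months 9.86 and 10.44 (samples 1 and 2). The 3 lowest values of all belong to second-set arrays, whose Phf1 signals were 4673 to 6751 pixel units against 5139 to 18404 in the first set. The paired spots differed by up to 2.07 log2 units, more than the step between any age means.

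The other PRC2 genes were looked at as a list of 8, of which 4 are on the array and 3 were tested, the methyltransferase gene Ezh1 and the histone-binding subunits Rbbp4 and Rbbp7. Jarid2, Aebp2, Mtf2 and Phf19 were not analysed here. Ezh2, the main catalytic subunit of dividing cells, was detected in 1 sample and not tested. None of the tested genes was called in any comparison (0 of 3), beside the 0% to 2.63% of all tested genes given above. At 3 months 0 of the 3 were lower and 3 higher than at 1 month, with a median difference of 0.39. At 6 months 2 were lower and 1 higher, with a median of -0.90, and at 12 months again 2 were lower and 1 higher, with a median of -0.07. At 24 months all 3 were lower, with a median of -0.63, but Rbbp7 was at only -0.04 (limma adjusted p = 0.994). Ezh1 was at -1.16 (limma adjusted p = 0.321), and both arrays of 24 months are in the second set, where Ezh1 was lower (below). Over all 38 genes, 22, 20, 17 and 19 were lower and 16, 18, 21 and 19 higher at 3, 6, 12 and 24 months, with medians within 0.01 of 0. Quantile normalisation gives the gene spots of every array the same distribution, which tends to hold such medians near 0. These medians therefore do not show that the other genes stayed unchanged.

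Rbbp4 and Rbbp7 bind histones and are shared with other chromatin complexes. The value nearest to a call among the 3 genes was the F-test over ages for Rbbp4 (limma adjusted p = 0.0666). Rbbp4 differed from 1 month by -0.90 at 6 months (SE 0.27, limma adjusted p = 0.0833) and by -0.82 at 12 months (SE 0.27, limma adjusted p = 0.489). Rbbp7 differed by -1.05 at 6 months (SE 0.34, limma adjusted p = 0.0865). Suz12 had its own largest difference at that age under the reported processing, but only in part of the alternatives. Among fits with all samples, it was largest at 24 months under housekeeping scaling (-1.73), no scaling (-1.69) and the authors' ratios (-1.31). The same held with the set as a term (-0.92) and with array weights (-0.78). It was largest at 12 months with the local background subtracted (-2.29) or used in normexp (-0.80). First arrays only (-0.91) and second spots only (-0.83) also placed it at 12 months. Ezh1 was 1.51 log2 units lower in the second set of arrays (SE 0.30, limma adjusted p = 0.00275), the opposite direction to Eed.

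The genes whose levels ran most like Suz12 over the 15 samples were Hmgb2, a chromatin protein abundant in dividing cells (Pearson r = 0.81, Spearman rho = 0.58), Bmi1, a PRC1 subunit (r = 0.56, rho = 0.54), and the histone deacetylase Hdac2 (r = 0.45, rho = 0.40). For Hmgb2 r was 0.83 over the 11 samples with first-set arrays. For Eed they were the SWI/SNF subunits Smarcb1 (r = 0.91, rho = 0.89) and Smarcc2 (r = 0.70, rho = 0.63), and Bmi1 (r = 0.76, rho = 0.72). Over the first set, r with Eed was 0.74 for Smarcb1, 0.76 for Bmi1 and -0.01 for Smarcc2. Suz12 and Eed had r = 0.22 with each other, the 9th highest of 37 genes for Suz12 and the 13th for Eed. The lowest of the 37 for Eed was Ezh1, with r = -0.91, and r = -0.74 over the first set. These are descriptions over samples that share arrays and their brightness.

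**Figure D4:**
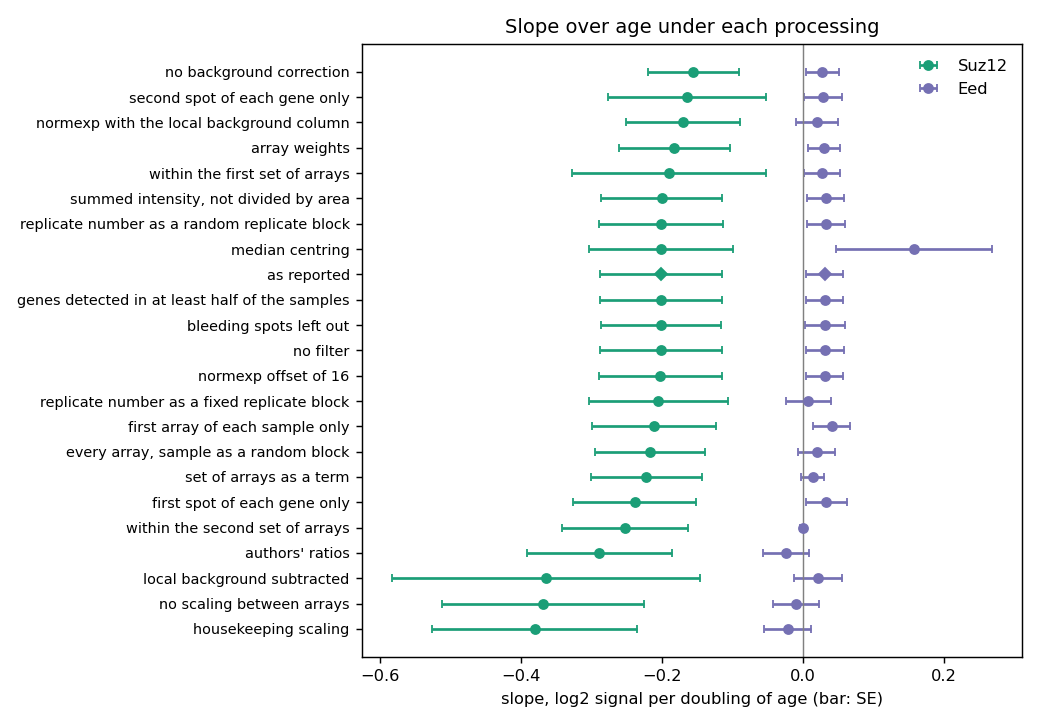
Slope over log2 age, in log2 signal per doubling of age, of Suz12 and Eed under the reported processing (diamonds) and each alternative (circles), with the SE as bars. The Suz12 slopes lie between -0.38 and -0.16 and the Eed slopes between -0.02 and 0.16, and no slope of either gene passed an adjusted p of 0.05.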

How the data were processed

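Spot intensity, the pixel signal summed over a spot, was deposited by the authors with the spot area, a local background, a present or absent call and a bleeding mark, per the file headers. A deposited table holds a ratio for 49 genes, which a recomputation matched to the summed signal over the median housekeeping spot of the array (largest difference 0.0071). The software behind these files is not given in the sources used here. A further 5 arrays in the sheets belong to other samples and were not used.

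Signal per pixel was corrected with normexp (offset 50) and quantile normalised over 117 gene spots in limma 3.58.1 (R 4.3.3), taken as log2, and averaged, first over spots and then over repeat arrays. Detection in a sample required a present call on 50% or more of the spots of a gene. Genes with detection in 2 or more of the 15 samples, 38 in number, were fitted with lmFit and eBayes (10 residual degrees of freedom), with Benjamini-Hochberg adjustment over all 38 and a threshold of 0.05. The code of the fit was run on simulated independent genes with a common spread, which checks the code and not its suitability for these arrays. Genes named by a fixed rule are Suz12, Eed, Phf1, the other PRC2 genes and, per tested member, the 3 most correlated genes. The listed markers of other cells that are on the array are also named. Sbf1 was named only because it was called. The members and lists were chosen with earlier results of these data known. Sequences come from RefSeq (GRCm38.p6). Alternatives covered background, scaling, filter, spots, repeats, replicate number, set, weights and leaving out samples.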

Additional observations from a re-analysis of the deposited data

How the results depend on the processing

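Suz12 kept its negative direction at each older age and in the trend under all alternatives run (21 to 22 each) and in all 15 fits that leave out a sample, and neither Suz12 nor Eed was called in any of them. Over the alternatives the Suz12 difference ranged from -0.66 to -0.16 at 3 months, -1.20 to -0.51 at 6 months, -2.29 to -0.54 at 12 months and -1.73 to -0.55 at 24 months (limma adjusted p 0.531 to 0.999, 0.158 to 0.874, 0.447 to 0.998 and 0.317 to 0.908), and with a sample left out from -0.80 to -0.20, -1.18 to -0.46, -1.05 to -0.58 and -1.03 to -0.56.

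Median centring moved Eed most, to 0.36 at 12 months and 0.91 at 24 months, without a call. Eed changed sign under several settings. With the local background in normexp it was 0.0740 at 3 months and 0.0176 at 6 months, and with that background subtracted 0.0808 and 0.0231. Scaling on housekeeping genes, no scaling and the authors' ratios gave -0.0897, -0.0319 and -0.104 at 12 months, -0.0628, -0.0234 and -0.0689 at 24 months, and slopes of -0.0214, -0.00971 and -0.0242. The set as a term gave 0.00804 at 6 months, the first set alone 0.0257 at 6 months, and the second set alone -0.00964 at 12 months and a slope of -0.000234. Every array with the sample as a random block gave -0.00845 at 12 months, and array weights -0.0147. Leaving out a sample moved the 12-month value between -0.0494 and 0.0790. The cause of these changes was not tested.

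With the replicate number as a fixed replicate block, Eed was -0.0936 at 12 months and Suz12 -1.17 at 6 months (limma adjusted p = 0.501). What the numbers stand for is not given by the sample titles, and whether they pair the samples was not settled. Of 12 same-numbered pairs, 6 had a correlation of deviations over 0.1 (range -0.42 to 0.40). These values cannot decide it, because no differently numbered pairs were set beside them. As a random replicate block the correlation was -0.08, and the Suz12 slope was -0.20. With an unadjusted p under 0.05 in limma, 13 genes passed the F-test, 5, 6, 2 and 6 genes the comparisons at 3, 6, 12 and 24 months, and 4 genes the trend. Phf1 was detected in 0 samples where all spots had to be present.

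Small groups, dim older arrays, bright Eed spots and sets that partly follow age limit these comparisons.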
